A study of Mus musculus with 8 samples.

Results

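The genes described here encode proteins that detect foreign or misplaced nucleic acid in the cytosol, or that act directly beside such detectors. They were Ifih1, Ddx58 and Dhx58, which encode the RNA helicases MDA5, RIG-I and LGP2, Mavs, the mitochondrial adaptor of that pathway, Tmem173, which encodes the DNA-pathway adaptor STING, Zbp1, a sensor of nucleic acids in the Z conformation, Eif2ak2, which encodes the kinase PKR, and Adar, which encodes the RNA-editing enzyme ADAR1. All 8 genes were found by symbol among the array annotation, with 12 probes of 55681, and all 12 were kept by the filter on dim probes. They were 8 of 27973 genes tested.

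RNA came from cultures of mouse bone marrow-derived macrophages, grown for 6 days from the marrow of female animals aged 6 to 8 weeks. Their medium held supernatant of L929 fibroblasts, which secrete the macrophage growth factor CSF1. The cells were labelled Cullin 3 wildtype (WT) or Cullin 3 knockout (KO). Cullin 3 is the scaffold of ubiquitin ligases that use BTB-domain proteins as substrate adaptors. Each genotype was left untreated or given lipopolysaccharide (LPS), an outer-membrane component of Gram-negative bacteria and the ligand of Toll-like receptor 4, for 6 hours. The 4 groups held 2 samples each, with one array per sample, and that number limits the precision. The labels give neither a strain nor the allele, the Cre driver or the deleted part of Cul3, and leave out whether the 2 samples of a group were separate animals or cultures, so p-values reflect the spread between samples that may be technical. In RNA from whole cultures, fewer cells of a type and less RNA per cell cannot be told apart.

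RIG-I and MDA5 bind viral or aberrant RNA in the cytosol and signal through MAVS to kinases that switch on type I interferon, while LGP2 lacks the signalling domains and modulates the other two. Cytosolic DNA signals through STING to the same kinases. Interferon in turn raises many of the sensors, so that in macrophages part of the sensing machinery is itself a set of interferon-stimulated genes. LPS, which induces interferon beta through Toll-like receptor 4, can raise such genes without any nucleic acid ligand. Whether interferon raised the genes described here was not tested. PKR stops translation when it binds double-stranded RNA, and ADAR1 converts adenosines in such RNA to inosine, which keeps it from being sensed as foreign.

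Because several of the genes moved together, their promoters were read for the letters of the interferon-stimulated response element, GAAANNGAAA, on both strands from 250 bases before to 50 bases after the transcription start (RefSeq, GRCm38.p6). A promoter was at hand for 5 of the 8 genes, and Dhx58, Zbp1 and Tmem173 were not matched. Of these 5 genes, 3 held the letters in a listed promoter, against 3.99% of 27025 genes (3.44% of 32851 promoters). A shorter form with a single spacer base, GAAANGAAA, was found in 3.7% of genes (3.17% of promoters) and can be read in Ddx58 and Adar. The 30-base windows below run 5′ to 3′ along the gene, with the matching letters in capitals. They lie at chr2:62646206-62646235 on the minus strand for Ifih1, chr4:40239804-40239833 and chr4:40239866-40239895 on the minus strand for Ddx58, chr17:78882535-78882564 on the minus strand for Eif2ak2 and chr3:89730736-89730765 on the plus strand for Adar. In the first Ddx58 window the match reads on the opposite strand. Counted from the transcription start, the match began at base 33 in Ifih1, 19 in Eif2ak2 and 29 in Adar, all after the start. In Ddx58 the longer form began at base 3 and the shorter form, before the start, at -60.
Ifih1: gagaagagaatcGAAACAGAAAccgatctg
Ddx58, longer form: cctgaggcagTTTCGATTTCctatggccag
Ddx58, shorter form: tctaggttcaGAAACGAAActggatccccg
Eif2ak2: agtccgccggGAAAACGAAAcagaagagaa
Adar: ccttttcaagGAAACGAAAgtgaactctgg

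The Adar match lay in 1 of its 3 listed promoters. The Mavs promoter held neither form, and the 60 bases before its start, chr2:131234003-131234062 on the plus strand, are shown as an example of a promoter without a match.
Mavs: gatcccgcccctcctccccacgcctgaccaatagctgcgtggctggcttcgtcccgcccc
These matches describe letters in a window. No binding was measured in these samples.

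Values below are log2 processed signals relative to the 75th percentile of their array, so that 1 unit is a doubling, and can be compared between arrays for 1 gene but not between genes. Called means a limma p-value, adjusted by Benjamini-Hochberg over all genes, under 0.05. The targeted gene served as a check of the labels. Cul3 read 2.04 and 2.08 in untreated WT, 1.65 and 1.55 in untreated KO, 2.69 and 2.72 in WT with LPS and 2.22 and 2.15 in KO with LPS. It was lower in KO in both states, by 1.38-fold untreated (log2 -0.46 ± 0.11 SE, limma adjusted p = 0.0905) and by 1.43-fold with LPS (-0.52 ± 0.11, adjusted p = 0.0304). Whether its probe lies in the deleted part is not known, so its remaining signal does not measure the completeness of the deletion.

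The 75th percentile signal ranged from 553 to 1280 over the 8 arrays, with 60.9% to 73.7% of spots well above background. The correlation between the 2 arrays of a group, taken over genes and so not over independent points, was 0.992 to 0.995. All arrays lay on 1 slide, WT in row 1 and KO in row 2, with the untreated arrays in columns 1 and 2 and the LPS arrays in columns 3 and 4. Genotype and slide row, and LPS and the side of the slide, therefore cannot be told apart. Of 8 macrophage markers, 7 or 8 were well above background on both arrays of every group. Markers of neutrophils differed with genotype: 7 of 10 were called higher in KO in both states, 1 was called lower with LPS, and the summed signal of the 10, in units of the array's 75th percentile, was 61.8 to 66.2 in untreated WT, 101 to 106 in untreated KO, 136 to 146 in WT with LPS and 208 to 232 in KO with LPS. The summed macrophage markers were at 1190 to 1270, 811 to 1050, 1840 to 1870 and 1610 to 1660 in the same order, with 0 called in untreated cells (2 at an unadjusted limma p under 0.05) and 1 of 8 called lower in KO with LPS. Of 7 dendritic cell markers measured, 1 was called higher in untreated KO and 3 lower in KO with LPS. Among these 3, Clec9a was not well above background on 6 of the 8 arrays. The sums over the 8 dendritic cell markers on the array were 143 to 167, 149 to 172, 228 to 247 and 210 to 224. The part of these markers in the sensor results was not tested.

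With LPS, 6 of the 8 genes rose steeply in both genotypes, Mavs fell, and Tmem173 fell in KO. All 8 were called different between genotypes in the LPS-treated cells in the main fit, though the calls of all but Tmem173 depended on the settings. The 6 induced genes and Tmem173 were lower in KO, at between 43.7% and 67.8% of the WT level, and Mavs was higher in KO at 161%. In untreated cells 0 of the 8 genes were called different by limma, and 2 of them had an unadjusted p under 0.05. The plot of each gene on each array shows this pattern.

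**Figure D1:**
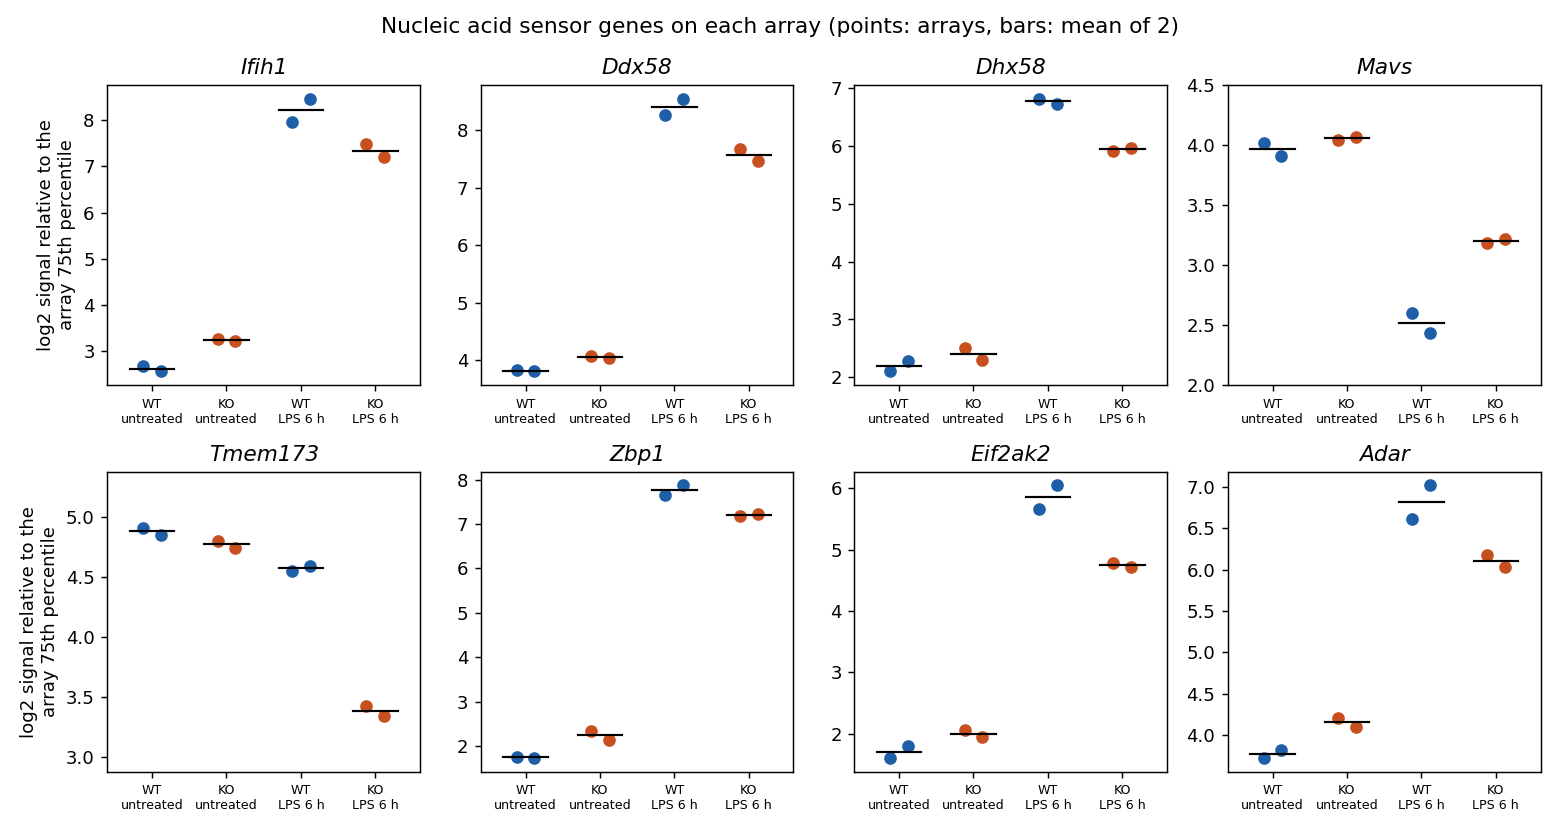
Log2 signal relative to the 75th percentile of the array for the 8 genes, one panel per gene with its own vertical range, on the 2 arrays of each group (points) with their mean (bar). In the panels of the 6 induced genes the WT arrays with LPS lie above the KO arrays with LPS, for Mavs the order is the opposite, and for Tmem173 the KO arrays with LPS lie lowest, at 3.42 and 3.34.

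Ifih1, the gene of MDA5, which binds long double-stranded RNA, read 2.68 and 2.57 in untreated WT, 3.28 and 3.22 in untreated KO, 7.96 and 8.46 in WT with LPS and 7.48 and 7.19 in KO with LPS. The groups did not overlap, and the order was untreated WT, untreated KO, KO with LPS and WT with LPS. LPS raised it 48.1-fold in WT (log2 5.59 ± 0.20 SE, limma adjusted p = 4.32e-06) and 16.9-fold in KO (4.08 ± 0.20, adjusted p = 1.84e-05). In the LPS-treated cells KO stood at 54.3% of WT (-0.88 ± 0.20, adjusted p = 0.0324). In untreated cells the 2 lowest groups differed by 0.62 ± 0.20 with KO higher, an adjusted p of 0.15 that missed the threshold, with a 95% interval of 0.14 to 1.11 before adjustment.

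Ddx58, the gene of RIG-I, which recognises RNA with a triphosphate end, read 3.83 and 3.81 in untreated WT, 4.08 and 4.04 in untreated KO, 8.26 and 8.55 in WT with LPS and 7.68 and 7.46 in KO with LPS. Its groups took the same order as those of Ifih1, and the 2 untreated groups differed by 0.24 ± 0.15 (limma adjusted p = 0.387). The rise with LPS was 24-fold in WT (4.59 ± 0.15, adjusted p = 3.41e-06) and 11.4-fold in KO (3.51 ± 0.15, adjusted p = 1.22e-05). KO with LPS stood at 56.1% of WT (-0.83 ± 0.15, adjusted p = 0.0166).

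Dhx58, the gene of the regulator LGP2, read 2.10 and 2.28 in untreated WT, 2.51 and 2.29 in untreated KO, 6.82 and 6.72 in WT with LPS and 5.92 and 5.97 in KO with LPS. The untreated groups were separated by only 0.01 between their nearest arrays and differed by 0.21 ± 0.14 (limma adjusted p = 0.428). LPS raised Dhx58 23.8-fold in WT (4.57 ± 0.14, adjusted p = 2.74e-06) and 11.7-fold in KO (3.54 ± 0.14, adjusted p = 9.31e-06). With LPS the KO level was 56.4% of WT (-0.83 ± 0.14, adjusted p = 0.0138), close in size to the differences of the other 2 helicase genes.

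Mavs, the adaptor on which RIG-I and MDA5 converge, went the other way. It read 4.02 and 3.91 in untreated WT, 4.04 and 4.07 in untreated KO, 2.60 and 2.43 in WT with LPS and 3.18 and 3.22 in KO with LPS. LPS lowered it 2.73-fold in WT (-1.45 ± 0.12, limma adjusted p = 0.000129) and 1.81-fold in KO (-0.85 ± 0.12, adjusted p = 0.00179). KO with LPS was therefore 1.61-fold above WT with LPS (0.69 ± 0.12, adjusted p = 0.0166). In untreated cells the difference was 0.09 ± 0.12 (adjusted p = 0.709), with a 95% interval of -0.21 to 0.39, and its sign turned to -0.03 under quantile normalization.

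Tmem173, the gene of STING, the adaptor of the cGAS pathway, read 4.91 and 4.85 in untreated WT, 4.80 and 4.74 in untreated KO, 4.55 and 4.59 in WT with LPS, and 3.42 and 3.34 in KO with LPS. LPS lowered it 2.62-fold in KO (-1.39 ± 0.11, limma adjusted p = 0.000144). The WT value was -0.31 ± 0.11 (adjusted p = 0.0561) and depended on the scaling: it passed the threshold at -0.92 under quantile normalization (adjusted p = 0.000563), -0.69 with median centring (0.00448), -0.42 with normexp background correction (0.00976) and -1.21 on the deposited values (4.73e-05). It was also called with a filter on all 8 arrays. With LPS, KO stood at 43.7% of WT (-1.20 ± 0.11, adjusted p = 0.00278). Among the 8 genes this was the one called under all 19 alternatives run, with values from -1.23 to -0.86 and adjusted p from 0.000127 to 0.046. The untreated groups differed by -0.11 ± 0.11 (adjusted p = 0.594), with an interval of -0.39 to 0.16.

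Zbp1, whose product binds Z-form RNA and DNA and can start necroptosis, read 1.76 and 1.73 in untreated WT, 2.35 and 2.14 in untreated KO, 7.66 and 7.87 in WT with LPS and 7.19 and 7.22 in KO with LPS. Its rise with LPS ranked 280 of all genes in WT, at 64.7-fold (6.02 ± 0.14, limma adjusted p = 1.32e-06), and 325 in KO, at 31.1-fold (4.96 ± 0.14, adjusted p = 3.72e-06). KO with LPS was at 67.8% of WT (-0.56 ± 0.14, adjusted p = 0.0404). In untreated cells KO was higher by 0.50 ± 0.14, with an unadjusted p of 0.0102 in the limma fit and an adjusted p of 0.112.

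Eif2ak2, the gene of PKR, read 1.60 and 1.79 in untreated WT, 2.06 and 1.94 in untreated KO, 5.66 and 6.05 in WT with LPS and 4.78 and 4.71 in KO with LPS. It rose 17.9-fold in WT (4.16 ± 0.17, limma adjusted p = 6.42e-06) and 6.72-fold in KO (2.75 ± 0.17, adjusted p = 4.3e-05). KO with LPS stood at 46.4% of WT (-1.11 ± 0.17, adjusted p = 0.01), and the untreated groups differed by 0.30 ± 0.17 (adjusted p = 0.339).

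Adar, whose longer isoform is the interferon-inducible one, read 3.72 and 3.82 in untreated WT, 4.21 and 4.10 in untreated KO, 6.61 and 7.02 in WT with LPS and 6.18 and 6.03 in KO with LPS. Of the 6 induced genes it rose least, 8.27-fold in WT (3.05 ± 0.17, limma adjusted p = 2.11e-05) and 3.87-fold in KO (1.95 ± 0.17, adjusted p = 0.000184), and this held under quantile normalization (2.35 and 1.55), median centring (2.66 and 1.66), normexp background correction (3.06 and 1.93) and on the deposited values (2.27 and 1.33). With LPS the KO level was 61% of WT (-0.71 ± 0.17, adjusted p = 0.0371), and untreated the difference was 0.38 ± 0.17 (adjusted p = 0.255).

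Read over the 8 genes, LPS called 6 higher and 1 lower in WT, where 58.3% of all genes were called, 36.5% higher and 21.8% lower. It called 6 higher and 2 lower in KO, where 49% of all genes were called, 28.7% higher and 20.4% lower. The 2 arrays of each group lay apart for all 8 genes in both, as they did for 78.4% and 79.4% of genes. The median of the 8 log2 responses was 4.37 in WT and 3.13 in KO, against 0.32 and 0.21 over all genes. The median over all genes in WT moved to -0.06 under quantile normalization, -0.07 with median centring, 0.52 with normexp and -0.61 on the deposited values. The 6 induced genes were called higher and Mavs lower under every one of these 4 scalings in both genotypes. The 6 induced genes lay between the percentiles 94.8 and 99 of all responses in WT and between 92.5 and 98.8 in KO.

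**Figure D2:**
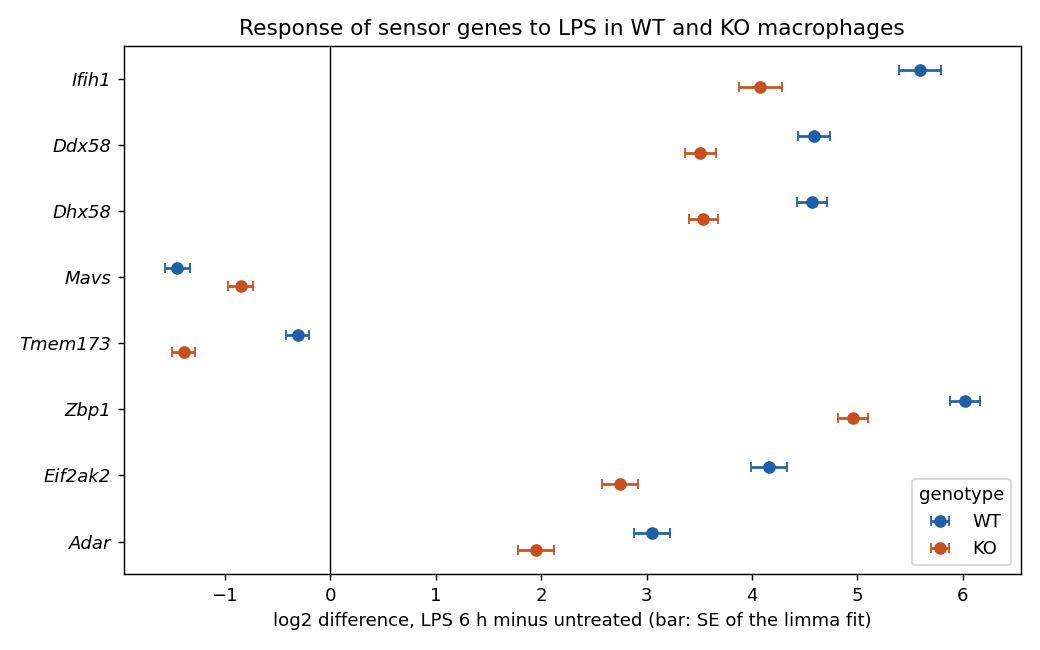
Log2 difference between LPS for 6 hours and untreated for each of the 8 genes in WT and in KO (points), with the standard error of the limma fit (bars) and a line at no change. The response of each of the 6 induced genes is smaller in KO, from 4.96 for Zbp1 to 1.95 for Adar, than in WT, from 6.02 to 3.05, while the fall of Mavs is smaller and that of Tmem173 larger in KO.

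In untreated cells, 0 of the 8 genes were called by limma (2 at an unadjusted p under 0.05), against 3.44% of all genes, 2.27% higher and 1.17% lower, and the arrays of the genotypes lay apart in all 8, against 60.5% of genes. Values were higher in KO for 7 of the 8, with Mavs turning to -0.03 under quantile normalization and with Ifih1 and Adar turning on their other probes. The median difference was 0.27 against 0.05 over all genes. With LPS all 8 genes were called, against 16.5% of all genes: 7 were lower in KO, against 8.57%, and 1 was higher, against 7.88%. The median difference was -0.83 against -0.08 over all genes, and the 2 arrays of each group lay apart in all 8, against 57.5% of genes. All 8 kept their sign under all 19 alternatives, but the calls depended on how the spread was estimated. Only Tmem173 was called in the fit to the 4 LPS arrays alone, with a block for slide column, or without replicate 2 of the KO LPS arrays. Without replicate 1 of that group, Ddx58, Eif2ak2 and Tmem173 were called. Without WT LPS replicate 2 or without any single one of the 4 untreated arrays, Ddx58, Dhx58, Eif2ak2, Mavs and Tmem173 were called. Without WT LPS replicate 1 all 8 were.

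**Figure D3:**
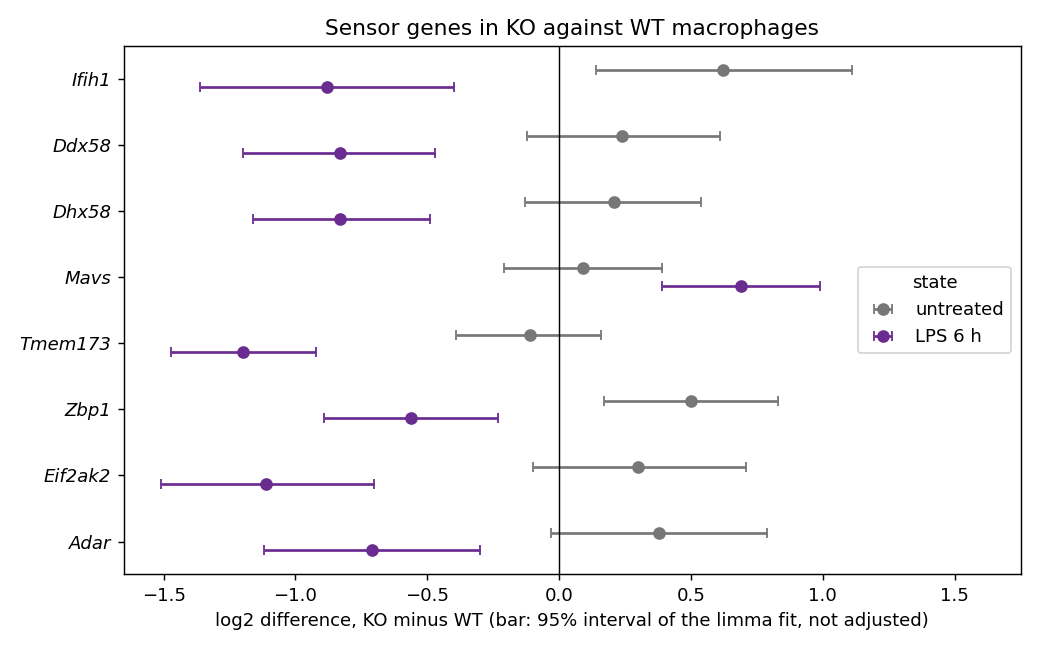
Log2 difference between KO and WT for the 8 genes in untreated cells and after 6 hours of LPS (points), with the 95% interval of the limma fit before adjustment for the number of genes (bars). The untreated intervals of Ifih1 and Zbp1 exclude 0 with KO higher, the LPS intervals of 7 genes lie below 0 and that of Mavs lies above 0.

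The difference between the 2 responses, KO minus WT, was tested in the same fit. It was called for 6 of the 8 genes, against 4.48% of all genes. All 6 were negative, against 2.92% of all genes, with 1.57% positive, and the median over the 8 was -1.08 against -0.11 over all genes. For the RNA helicases it was -1.51 ± 0.28 in Ifih1 (limma adjusted p = 0.0426), -1.08 ± 0.21 in Ddx58 (adjusted p = 0.0473) and -1.03 ± 0.20 in Dhx58 (adjusted p = 0.0447). For Zbp1 it was -1.06 ± 0.19 (adjusted p = 0.0414), for Eif2ak2 -1.41 ± 0.24 (adjusted p = 0.0346) and for Tmem173 -1.08 ± 0.16 (adjusted p = 0.0273). Adar at -1.10 ± 0.24 (adjusted p = 0.0588) and Mavs at 0.60 ± 0.17 (adjusted p = 0.115) missed the threshold. The adjusted values lie close to 0.05. None of the 8 was called with a block for replicate number or for slide column, or without the filter on dim probes. With the slide column block 7 of the 8 had an unadjusted limma p under 0.05, as did 4396 of all genes. With the replicate block and without the filter all 8 did, and the number over all genes is not given here. The calls also depended on single arrays. That of Dhx58 was lost whichever array was left out, and the others held only without WT LPS replicate 1. In that fit Adar, not called in the main fit, was called as well. All 8 values kept their sign without any one array. This difference and the genotype differences above share arrays and are no independent readings of each other.

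Ifih1, Ddx58, Zbp1 and Adar each had a second, dimmer probe on the array. The chosen probes matched mm9 at chr2:62435507-62435566 on the minus strand for Ifih1, chr4:40151893-40151952 on the minus strand for Ddx58, chr2:173039307-173039366 on the minus strand for Zbp1 and chr3:89555266-89555325 on the plus strand for Adar, and those of Dhx58, Eif2ak2 and Mavs at chr11:100556271-100556330 and chr17:79252168-79252227 on the minus strand and chr2:131073675-131073734 on the plus strand. Exon annotation of that build was not used here. On all 8 arrays, all 12 probes were well above background and 0 were saturated.

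**Figure D4:**
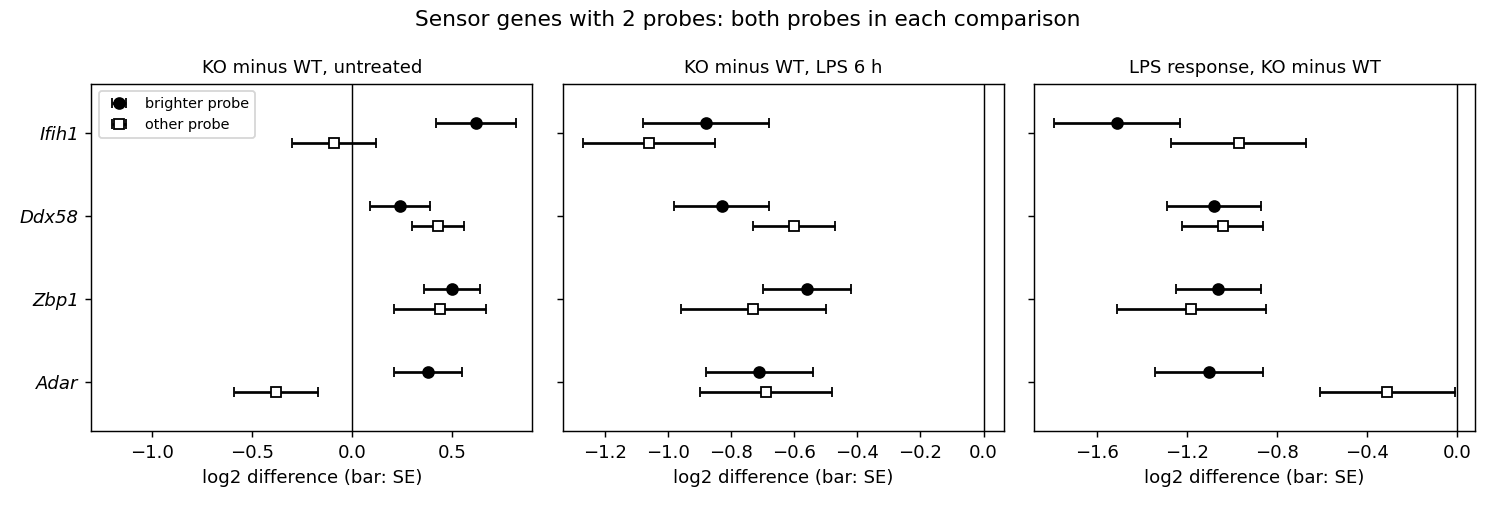
Log2 differences with standard errors of the limma fit for the brighter (filled) and the other probe (open) of Ifih1, Ddx58, Zbp1 and Adar, in untreated cells, with LPS, and for the difference in LPS response. Both probes of each gene lie below 0 with LPS, whereas in untreated cells the other probes of Ifih1 and Adar lie at -0.09 and -0.38, on the opposite side of 0 from the brighter ones.

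The second probes gave the same direction with LPS and in the response, and not always in untreated cells. For Ifih1 the second probe read -2.93 and -2.54 in untreated WT and -2.58 and -3.06 in untreated KO, overlapping groups with a difference of -0.09 ± 0.21 (limma adjusted p = 0.843), and was called lower in KO with LPS at -1.06 ± 0.21 (adjusted p = 0.023). Its response differed by -0.97 ± 0.30 (adjusted p = 0.13), which missed the threshold that the chosen probe passed. The second Ddx58 probe was also called lower with LPS (-0.60 ± 0.13, adjusted p = 0.0289) and in the response (-1.04 ± 0.18, adjusted p = 0.0385). For Zbp1 the files annotate the chosen probe to the transcript NM_001139519 and the other to NM_021394, and whether either also lies in the other transcript was not tested. The other probe rose by 6.53 in WT and 5.35 in KO with LPS and differed by -0.73 ± 0.23 in the LPS-treated cells (adjusted p = 0.0801) and by -1.18 ± 0.33 in the response (adjusted p = 0.101), neither of them called. For Adar the second probe, which starts at base 5698 of the transcript against 3806 for the first, read 2.87 and 3.08 in untreated WT against 2.67 and 2.53 in untreated KO, which is lower in KO where the first was higher (-0.38 ± 0.21, adjusted p = 0.349). With LPS it differed by -0.69 ± 0.21 (adjusted p = 0.0761), and its response differed by -0.31 ± 0.30 (adjusted p = 0.591) against -1.10 for the first probe. The size of the Adar difference in response thus differed between its probes.

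The genes whose profile over the 8 arrays was most like each sensor were found by the root mean square difference of mean-centred log2 values. They were taken without regard to function, among genes with a proper name and a value on every array. For Ifih1 they were Ddx60 at 0.10, Stk39 at 0.13 and Nlrc5 at 0.15, against a spread of Ifih1 itself of 2.45. For Ddx58 they were Tpst1 at 0.09, Icam1 at 0.10 and Dhx58 at 0.14, and for Dhx58 they were Oas1g at 0.11, Epsti1 at 0.12 and Ddx58 at 0.14, so these 2 helicase genes named each other. Eif2ak2 was nearest to Pcgf5 at 0.11, with Irgm2 and Timeless at 0.12. Adar was nearest to Kat2b at 0.10, with Znfx1 and Dnaja2 at 0.11, and Zbp1 to Tnc and Phf11a at 0.17 and Cstdc5 at 0.18. Mavs lay within 0.05 of Osgepl1 and 0.06 of Surf2 and Rxrb against a spread of 0.63, and Tmem173 within 0.05 of Wdr62, 0.10 of Prcp and 0.11 of Exoc6 against 0.60. These are descriptions over 8 arrays of 4 groups, and they depend in part on the background correction: with normexp, Stk39 moved to 0.78 from Ifih1 and Tnc to 1.48 from Zbp1.

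The wider pathway of the helicases, 32 genes of RIG-I-like receptor and MAVS signalling, all measured, rose in the majority with LPS. In each genotype 19 were called higher and 4 lower. Of all genes, 36.5% were called higher and 21.8% lower in WT, and 28.7% and 20.4% in KO. The medians were 0.92 in WT and 0.86 in KO against 0.32 and 0.21 over all genes. Usp18, which removes ISG15 from proteins and damps interferon signalling, rose most, by 6.30 ± 0.15 in WT (limma adjusted p = 1.35e-06) and 4.87 ± 0.15 in KO (adjusted p = 4.39e-06). On the chosen probes Cyld, a deubiquitinase that acts on RIG-I, fell most, by -1.91 ± 0.20 and -1.96 ± 0.20 (adjusted p = 0.000317 and 0.000368). Over the alternative settings its fall ran from -2.69 to -0.76 in WT and from -2.62 to -0.75 in KO. In LPS-treated KO cells 7 were called lower and 0 higher, against 8.57% and 7.88% of all genes. The median was -0.21 against -0.08 over all genes. The largest of these 7 differences was that of Rnf125, a ubiquitin ligase that targets RIG-I, MDA5 and MAVS for degradation, at -1.64 ± 0.14 (adjusted p = 0.00209). The others were Usp18, the RIG-I ligase gene Rnf135, the antiviral zinc finger gene Zc3hav1, the helicase gene Ddx60, the kinase gene Tbk1 and Tomm70a. The response of 3, Ddx60 (-1.57 ± 0.31, adjusted p = 0.0475), Usp18 and Rnf125, was called smaller in KO, against 2.92% of all genes. With a block for slide column 0 of all genes were called in the response. No response call of this list or of the lists below held there. Those of Ddx60 here and of Aim2, Casp8, Pnpt1 and Irf1 below were also lost in most fits without 1 array, with values that stayed negative. In untreated cells 0 of the 32 were called, against 3.44% of all genes, and 4 of the 32 had an unadjusted p under 0.05. The median was 0.19 against 0.05. Cyld had the smallest p (0.79 ± 0.20, adjusted p = 0.0915), and its difference was 0.41 with the mean of a gene's probes.

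Among 27 measured genes of the STING pathway and other DNA sensors, LPS called 11 higher and 12 lower in WT, and 10 higher and 12 lower in KO, against 36.5% of all genes called higher and 21.8% lower in WT, and 28.7% and 20.4% in KO. The list's medians were -0.24 and -0.18. Mndal, an interferon-inducible gene of the PYHIN family, rose most (5.22 ± 0.19 in WT and 4.13 ± 0.19 in KO, limma adjusted p = 4.3e-06 and 1.38e-05), and Prkdc, the catalytic subunit of DNA-dependent protein kinase, fell most (-3.74 ± 0.14 and -3.47 ± 0.14, adjusted p = 4.83e-06 and 9.59e-06). In LPS-treated KO cells 4 were called lower and 0 higher, against 8.57% and 7.88% of all genes. The 4 included Aim2, the inflammasome DNA sensor, at -1.05 ± 0.17 (adjusted p = 0.0125). The others were Cgas, the enzyme that produces the STING ligand, at -0.91 ± 0.24 (adjusted p = 0.0487), Rnaseh2b at -0.55 and the DNA exonuclease gene Trex1 at -0.53. The list's median of -0.07 was near that of all genes. The response was called smaller in KO for Aim2 (-1.23 ± 0.24, adjusted p = 0.0471) and Trex1, against 2.92% of all genes. Between the untreated groups 0 of the 27 were called by limma (8 at an unadjusted p under 0.05), and the smallest p was that of Samhd1, an enzyme that breaks down the building blocks of DNA (0.42 ± 0.12, adjusted p = 0.125).

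Of the 6 partners of Zbp1 in cell death, LPS called 3 higher and 1 lower in WT and 3 higher in KO, with medians of 1.34 and 0.87. The shares of all genes called were 36.5% higher and 21.8% lower in WT, and 28.7% and 20.4% in KO. Cflar, the inhibitor of caspase 8, rose most in WT (5.74 ± 0.19, limma adjusted p = 3.49e-06) and Mlkl, the executioner of necroptosis, most in KO (4.80 ± 0.15, adjusted p = 4.56e-06). The death-domain adaptor gene Fadd was the 1 called lower in WT (-0.57 ± 0.20, adjusted p = 0.0475). Its fall ran from -0.83 to -0.31 in the fits without 1 array, most of which lost the call. Over the other alternative settings it ran from -1.4 to -0.57. Mlkl (-0.86 ± 0.15, adjusted p = 0.0143), Casp8 (-0.84 ± 0.11, adjusted p = 0.00718) and Cflar (-0.76 ± 0.19, adjusted p = 0.0428) were lower in KO with LPS. There the median of the 6 was -0.49, and 8.57% of all genes were called lower. The response of Casp8 was called smaller (-0.85 ± 0.16, adjusted p = 0.0442), against 2.92% of all genes. Untreated, 0 of the 6 were called by limma (0 also at an unadjusted p under 0.05), and the smallest p was that of Fadd at -0.41 ± 0.20 (adjusted p = 0.295).

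The list around PKR held 14 genes of eIF2α kinases and the OAS-RNase L system. LPS called 9 higher and 4 lower in WT, against 36.5% and 21.8% of all genes. In KO it called 8 higher and 4 lower, against 28.7% and 20.4%. The medians were 1.81 and 1.53. Oasl1 was called higher in untreated KO, at 3.88 ± 0.15 in WT and 5.17 ± 0.07 in KO (SD, n = 2, difference 1.29 ± 0.14 SE, limma adjusted p = 0.00947), the 1 call in untreated cells over the 6 pathway lists. This call was lost with a block for slide column and without any one of the 4 untreated arrays, and the fits that left out 1 array gave values from 1.18 to 1.39 with adjusted p from 0.0168 to 0.0859. Oasl1 rose by 5.65 in WT and 4.01 in KO with LPS. Its response was called smaller in KO (-1.64 ± 0.19, adjusted p = 0.019), a comparison in which 2.92% of all genes were called lower. That call too was lost with the slide column block. It was also lost in most of the fits without 1 array, in which the value ran from -1.74 to -1.53. Eif2ak3, the gene of PERK, another eIF2α kinase, moved against Eif2ak2: it fell with LPS by -3.17 ± 0.21 in WT and -2.64 ± 0.21 in KO and was higher in KO with LPS (1.13 ± 0.21, adjusted p = 0.018), as was Dnajc3, which encodes an inhibitor of PKR and PERK (0.66 ± 0.16, adjusted p = 0.0371). Lower in KO with LPS were Ppp1r15b, a subunit of the phosphatase that reverses eIF2α phosphorylation (-1.02 ± 0.13, adjusted p = 0.00627), and Oasl2 (-0.52 ± 0.12, adjusted p = 0.0364). In that comparison 7.88% of all genes were called higher and 8.57% lower.

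Around Adar, 9 genes of RNA editing and double-stranded RNA binding were measured. LPS called 5 higher and 1 lower in WT, against 36.5% and 21.8% of all genes. In KO it called 6 higher and 1 lower, against 28.7% and 20.4%. The medians were 0.45 and 0.68. Pnpt1, a mitochondrial RNA exonuclease gene, rose most, by 2.96 ± 0.11 in WT and 2.08 ± 0.11 in KO (limma adjusted p = 5.33e-06 and 2.8e-05), was lower in KO with LPS (-0.73 ± 0.11, adjusted p = 0.0107) and had a smaller response (-0.87 ± 0.16, adjusted p = 0.0414). Dicer1, the microRNA-processing nuclease, was the 1 that fell, by -1.64 ± 0.14 in WT and -1.13 ± 0.14 in KO. It was higher in KO with LPS (0.74 ± 0.14, adjusted p = 0.0195). Of all genes 7.88% were called higher and 8.57% lower in KO with LPS, and 2.92% had a response called lower. Without LPS, 0 of the 9 were called by limma (0 also at an unadjusted p under 0.05), and Adad1 had the smallest p (-0.51 ± 0.21, adjusted p = 0.236).

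The 10 measured genes of type I interferon induction and receptor signalling were all called higher with LPS in both genotypes. This compares with 36.5% of all genes in WT and 28.7% in KO. The medians were 2.34 in WT and 1.76 in KO. Socs1, a feedback inhibitor of the receptor, rose most, by 8.08 ± 0.17 and 6.97 ± 0.17 (limma adjusted p = 1.27e-06 and 2.82e-06). Ifnb1, interferon beta itself, was not well above background on any untreated array and rose at least 176-fold in WT and at least 25.6-fold in KO (adjusted p = 3.41e-05 and 0.000212), bounds that use the lowest signal among probes above background as the untreated level. Its level with LPS was 0.44 ± 0.12 in WT and -2.14 ± 0.05 in KO (SD, n = 2), 5.95-fold lower in KO (-2.57 ± 0.49 SE, adjusted p = 0.0191). This difference was called in 4 of the 8 fits that left out 1 array, with adjusted p from 0.0101 to 0.0854 and values from -2.66 to -2.49. Irf1, a transcription factor of interferon genes, Socs1 and Irf9, a subunit of the interferon-activated ISGF3 complex, were also called lower in KO with LPS (-1.11, -0.68 and -0.60). There 8.57% of all genes were called lower, and the median of the 10 was -0.58. The response of Irf1 was called smaller (-1.53 ± 0.24, adjusted p = 0.0308), against 2.92% of all genes. In untreated cells 0 of the 10 were called (3 at an unadjusted p under 0.05). The smallest p was that of the receptor gene Ifnar1 (0.71 ± 0.25, adjusted p = 0.182), whose difference was 0.11 with the mean of a gene's probes.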

How the data were processed

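RNA of 8 samples (2 per group, 0.5 µg each per the labels' protocols) was hybridised to 1-colour Agilent arrays. Per the submitters' processing notes, the authors extracted spot intensity with Feature Extraction 10.7.3.1, and probes carry mm9 positions per the file headers. The deposited log2 value table matched the background-subtracted signal of each array with no scaling between arrays; how its probes were selected is not given in the sources used here. The main values are log2 processed signals averaged per probe, without outlier spots, minus each array's 75th percentile over non-control probes. Of 55681 probes, the 39870 that stood well above background on both arrays of 1 or more groups were kept, and a gene was its probe with the highest mean. The 8 arrays entered one limma model with 1 mean per group (limma 3.58.1, R 4.3.3), with 4 residual and 2.29 prior degrees of freedom, and tested on simulated data. p-values were adjusted by Benjamini-Hochberg over all genes.

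The genes, the lists and the tests were chosen with earlier results of these data known. Named genes were the 8 sensors with all their probes, Cul3, and the 3 genes nearest to each sensor in profile. From each of 6 pathway lists came the called genes of largest rise and fall, or the smallest p where none was called. The search for near profiles left out entries with RIKEN, Gm, LOC, clone or probe names and genes without a value on every array. Further genes of lists with few calls were named after their values were seen. The 7 marker lists were given as counts and sums for 3 of them; for lymphocytes and NK cells, stromal and endothelial cells, erythroid cells and mast cells and basophils, 5, 6, 3 and 2 markers were measured, of which 0, 2, 1 and 0 were called in untreated KO against WT and 2, 1, 0 and 2 with LPS. Alternatives were other scalings, background corrections, filters, probe rules and blocks, the deposited values, and leaving out each array. Same-numbered replicates deviated together with correlations between -0.187 and 0.0274, so the numbers were not taken to pair the samples.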

Additional observations from a re-analysis of the deposited data

Results flagged for a closer look

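In 6 of the sensor genes the response to LPS differed between the genotypes by a test of the difference itself, the interaction term of the limma fit over all genes, in which 4.48% of genes were called, 2.92% with a lower value in KO. The log2 difference, KO minus WT, was -1.51 for Ifih1, -1.08 for Ddx58, -1.03 for Dhx58, -1.06 for Zbp1, -1.41 for Eif2ak2 and -1.08 for Tmem173. For the first 5 this was a smaller rise in KO, and for Tmem173 a larger fall. None of the 8 genes was called with a block for replicate number or slide column, or with no filter on dim probes. With the slide column block 7 of the 8, and 4396 of all genes, had an unadjusted limma p under 0.05. All 8 did with the replicate block and with no filter, where the number over all genes is not given here. The call of Dhx58 was also lost whichever array was left out, and the other calls held only without WT LPS replicate 1. Groups of 2 arrays are too small to be checked for an outlying array.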

How the results depend on the processing

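For the 8 sensor genes, 575 of 724 values under an alternative kept their direction and side of the threshold, 136 lost the call, 10 gained it and 3 changed sign. The 3 were untreated differences: Mavs at -0.03 under quantile normalization, and the other probes of Adar at -0.38 and Ifih1 at -0.09. Losses are partly built in: blocks and fits to 4 arrays leave fewer degrees of freedom, and no filter on dim probes adds tests. For the other changes the cause was not tested. Of 713 such values of the named pathway genes, 599 kept direction and side, 108 lost the call, 6 gained it and 0 changed sign.

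In untreated KO against WT, 961 genes were called, and 2307 with normexp, 1602 on the deposited values, 388 with no filter, 565 on the 4 arrays compared, 376 with the replicate block, 137 with a slide column block and 118 to 1513 without 1 array. Of the sensors 0 were called, and 1 on the deposited values, Ifih1 at 0.74 (limma adjusted p = 0.0349). With LPS, 4600 genes became 2863 with no filter, 799 on the 4 arrays, 2818 with the replicate block, 1151 with the column block and 1500 to 4240 without 1 array. The 8 sensor calls became 5 under quantile normalization, median centring, no filter and the replicate block, 4 on the deposited values, 1 on the 4 arrays, 1 with the column block, and 1 to 8 without 1 array. For LPS in WT, 16305 genes became 10650 on the deposited values. In every setting 6 sensors were called higher, in WT and in KO.

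For the difference in response, 1253 genes became 2431 with normexp, 196 with no filter, 1880 with a filter on all 8 arrays, 132 with the replicate block, 0 with the column block (4396 at an unadjusted limma p under 0.05) and 0 to 2311 without 1 array (0 without WT untreated replicate 1 or KO LPS replicate 2, with 5578 and 5039 at an unadjusted p under 0.05). The 6 sensor calls became 3 under quantile normalization, 1 with median centring, 2 on the deposited values, 0 with no filter, the replicate block or the column block (8, 8 and 7 at an unadjusted p under 0.05), and 0 to 6 without 1 array.

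The split of higher and lower calls with LPS moved with the scaling: in WT from 10202 and 6103 to 6996 and 8563 under quantile normalization, 6324 and 8461 with median centring, 16517 and 5542 with normexp and 2368 and 8282 on the deposited values, and in KO from 8010 and 5698 to 5908 and 7589, 5282 and 7500, 14214 and 5412, and 2106 and 7286. For KO against WT with LPS it moved from 2204 and 2396 to 2303 and 3792 with normexp and 3684 and 713 on the deposited values, and untreated from 634 and 327 to 1244 and 1063, and 1255 and 347. For the difference in response it moved from 438 and 815 to 563 and 687 under quantile normalization, 392 and 463 with median centring and 483 and 397 on the deposited values.

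Same-numbered samples did not deviate together, so the replicate block tests a shared number only. A crossed pairing of the LPS arrays, added after seeing the data because their deviations correlated at -0.187, called 3697 genes and 7 sensors. Signal over background was no limit for the sensors, whose probes were above it on every array.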
